A study of Homo sapiens with 21 samples.

Results

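The mRNA levels of 9 non-fibrillar collagen chains were followed in A375 human melanoma cells with SOX10 knockout or with acquired tolerance of BRAF and MEK inhibitors: COL6A1, COL6A2, COL6A3, COL8A1, COL12A1, COL14A1, COL15A1, COL16A1 and COL18A1. These 9 of the 58870 genes in the files were taken by name, and all 9 were among the 19290 genes that passed the filter on low values. Messenger RNA was sequenced from 21 libraries in 7 groups of 3. A375 carries a mutant BRAF kinase, and the labels give A375 or a line derived from it for all groups. The lines gSOX10 #4 and gSOX10 #2 were CRISPR/Cas9 knockouts of SOX10, which encodes a transcription factor of neural crest cells and melanocytes, made with separate guide RNAs, and the study's methods describe such lines as single expanded clones. The titles of the gSOX10 #4 libraries, however, carry a clone number that the study uses for a SOX10 knockout of MeWo, another melanoma line. Their labels were followed here, and every gSOX10 #4 comparison rests on them. CRT35 and CRT34 were each grown out of 1 A375 tumor in a mouse, one that had grown tolerant of a BRAF and a MEK inhibitor given together. Each CRT line was sequenced under both drugs (Combo, 1 µM of PLX4720 against BRAF with 35 nM of PD0325901 against MEK) and with the solvent DMSO in their place. Parental A375 cells without inhibitors were the control, and no control clone was given. A comparison of CRT Combo with parental cells therefore mixed the line and the inhibitors, which cannot be told apart there, and the labels do not say how long DMSO cells had been without inhibitors. The labels do not say whether a group's 3 libraries were independent cultures, so p-values measure the spread between these libraries, which may be technical.

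Collagens are triple helices of 3 chains in the extracellular matrix. Collagen VI is built from the products of COL6A1, COL6A2 and a longer chain, usually that of COL6A3. It forms beaded microfibrils around cells, is a classic product of fibroblasts and binds receptors that include integrins and CSPG4. COL8A1 makes a chain of collagen VIII, a short-chain collagen that forms networks, best known from vessel walls and the back of the cornea. COL12A1, COL14A1 and COL16A1 make fibril-associated collagens (FACITs), which sit on or near fibrils of other collagens and link them to the surrounding matrix. COL15A1 and COL18A1 make the multiplexins, proteoglycan collagens of basement membrane zones, and the C-terminal fragment of collagen XVIII is endostatin.

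On GRCh38 in GENCODE version 44, 3 of the 9 genes lay close together on chromosome 21. COL18A1 (ENSG00000182871.15, chr21:45405165-45513720, plus strand, 42 exons) ended 468 kb before COL6A1 (ENSG00000142156.14, chr21:45981770-46005050, plus strand, 35 exons), and COL6A1 ended 93.1 kb before COL6A2 (ENSG00000142173.15, chr21:46098112-46132848, plus strand, 28 exons). COL6A3 was elsewhere (ENSG00000163359.15, chr2:237324003-237414328, minus strand, 44 exons). The remaining members were COL8A1 (ENSG00000144810.16, chr3:99638475-99799226, plus strand, 4 exons), COL12A1 (ENSG00000111799.21, chr6:75084326-75206267, minus strand, 66 exons), COL14A1 (ENSG00000187955.12, chr8:120059780-120373573, plus strand, 48 exons), COL15A1 (ENSG00000204291.11, chr9:98943179-99070792, plus strand, 42 exons) and COL16A1 (ENSG00000084636.18, chr1:31652263-31704319, minus strand, 71 exons). The transcripts of the 3 chromosome 21 genes were rich in G and C, at 67.2% for COL18A1, 63.5% for COL6A1 and 66.4% for COL6A2, against a median of 48.4% over the genes tested. COL18A1 shared 1563 of its 8464 exon bases with SLC19A1, a folate carrier gene on the opposite strand. The library kit in the labels and the one in the study's methods differ in whether strand is kept, and without strand reads from the shared bases could not be assigned to 1 of these genes.

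The deposited values, called normalized values here, appear to be RSEM counts that the authors scaled by size factors and by a further factor per gene and library. That second factor could not be settled from the values, so levels, values per kb and the depths given here are read with it still in them. Changes are log2 differences between group means of log2(value + 1), given with their standard errors (SE), from 1 limma-trend fit to the 21 libraries. A gene was called at a Benjamini-Hochberg adjusted p of 0.05 or lower, over the 19290 genes, and a fold change of at least 2. Whether the libraries of 2 groups overlap is given as description only. Groups of 3 can lie apart without a true difference, and the share of all genes that lie apart is not given. Depth was 52.5 to 75.5 M reads in 20 libraries and 27.1 M in CRT35 DMSO replicate 1, as estimated from the value of 1 read in each library. CRT34 Combo replicate 3 lay close to the CRT34 DMSO libraries, and results that rest on either of these 2 libraries in doubt are also given without them. Leaving out a Combo library for its likeness to DMSO favors larger differences between Combo and DMSO. In CRT34, genes called between them went from 983 to 1549 without it. Calls gained in that way are therefore not independent support. SOX10 had 456 to 517 in gSOX10 #4 and 392 to 504 in gSOX10 #2, against 10348 to 12822 in parental cells, and the CRT libraries had 0 to 6.32. A guide that disrupts the reading frame need not remove the mRNA. MLANA and TYR, which mark pigmented melanoma cells, were listed at 0 in every parental library, and MLANA in every other library too. Parental cells had MITF at 1390 to 1502, S100A1 at 707 to 809 and S100B at 365 to 683. In CRT34 Combo, MITF had 3772 to 10247, while S100A1 was at most 8.24 and S100B at most 16.3. The 9 melanocyte and melanoma markers summed to 13127 to 15427 in parental, 2005 to 3377 in gSOX10 and 1628 to 10814 in CRT libraries. This sum includes SOX10.

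RefSeq promoter windows of 300 bases (GRCh38.p14, 250 bases before to 50 after the annotated start) were found for 6 of the 9 genes, namely COL6A2, COL6A3, COL12A1, COL15A1, COL16A1 and COL18A1, the last with 2 starts. They were searched on both strands for ACAAAG (SOX), TGANTCA (AP-1), GGGCGG (SP1), CATTCC (TEAD) and TATAAA (a core promoter box), none of which contains another. Among all 35116 windows, 16.1% held ACAAAG, 7.71% TGANTCA, 45.0% GGGCGG, 14.0% CATTCC and 11.5% TATAAA. The windows of COL6A2 and COL6A3 are shown because their mRNAs changed together in the CRT lines, and that of COL12A1 because its mRNA did not follow them under the inhibitors. Capitals mark every motif match on either strand.
COL6A2 (chr21:46097862-46098161, plus strand): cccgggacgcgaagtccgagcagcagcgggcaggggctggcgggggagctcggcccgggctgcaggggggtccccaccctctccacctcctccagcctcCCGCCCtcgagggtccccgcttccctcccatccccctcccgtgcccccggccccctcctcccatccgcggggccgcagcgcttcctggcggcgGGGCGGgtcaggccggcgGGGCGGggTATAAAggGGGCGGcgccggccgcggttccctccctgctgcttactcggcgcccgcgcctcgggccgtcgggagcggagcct
COL6A3 (chr2:237414115-237414414, minus strand): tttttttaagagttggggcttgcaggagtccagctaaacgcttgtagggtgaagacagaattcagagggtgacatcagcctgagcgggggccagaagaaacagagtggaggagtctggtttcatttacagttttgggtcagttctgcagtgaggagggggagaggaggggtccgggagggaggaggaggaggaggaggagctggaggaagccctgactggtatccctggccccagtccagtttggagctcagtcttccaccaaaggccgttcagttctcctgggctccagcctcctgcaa
COL12A1 (chr6:75206004-75206303, minus strand): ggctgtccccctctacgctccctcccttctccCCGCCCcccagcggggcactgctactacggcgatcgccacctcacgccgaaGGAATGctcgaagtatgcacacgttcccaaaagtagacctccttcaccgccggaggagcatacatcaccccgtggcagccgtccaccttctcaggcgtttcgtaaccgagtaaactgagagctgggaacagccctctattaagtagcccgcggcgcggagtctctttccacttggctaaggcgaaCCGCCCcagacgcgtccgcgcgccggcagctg

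COL6A2 had 4 matches to GGGCGG and a TATAAA 32 bases before the start. COL6A3 had no match to any of the 5 motifs. COL12A1 had 2 matches to GGGCGG and 1 to CATTCC. No TGANTCA was found in the windows of the 6 genes, and the only ACAAAG was in that of COL15A1, 33 bases after the start. These are matches of letters in short windows and say nothing of binding.

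**Figure D1:**
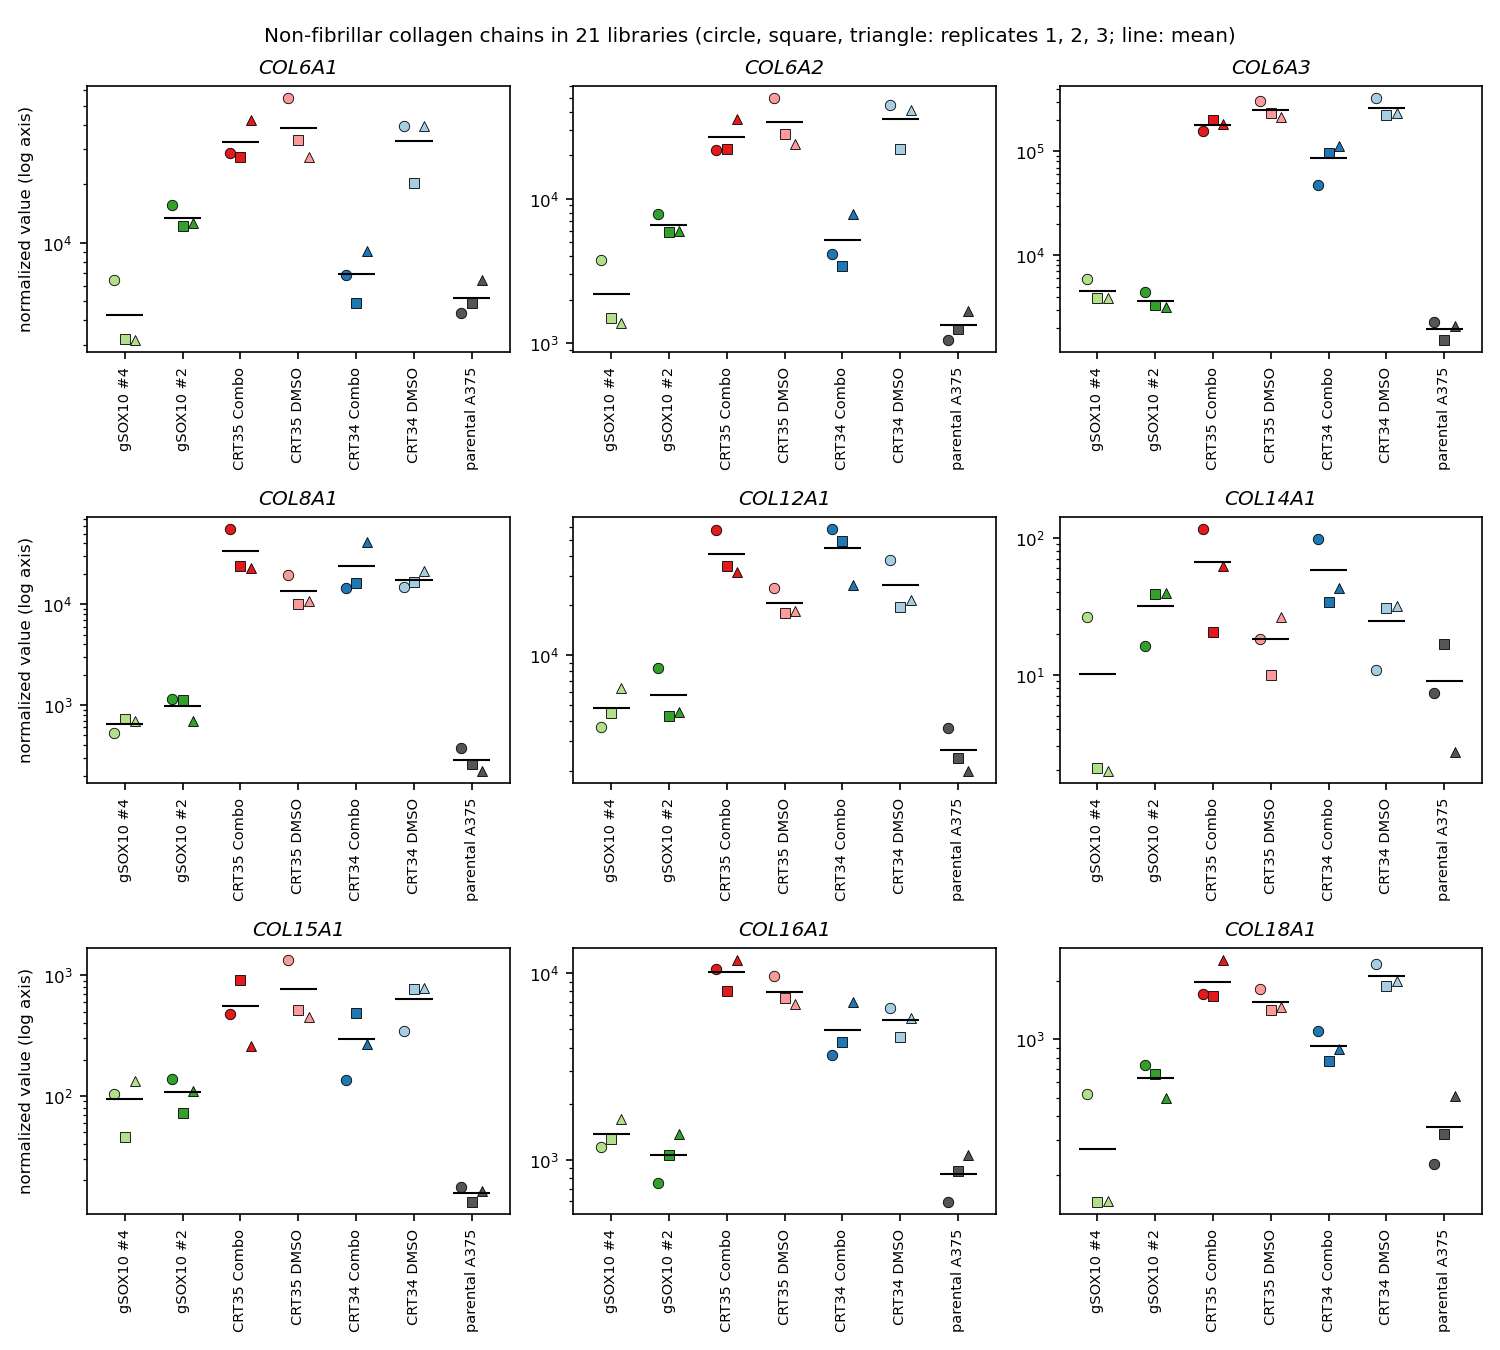
Normalized values (vertical log axes) of the 9 collagen chains in each library, by group. Points are libraries, their shapes replicates 1 to 3, and lines group means. COL6A3 is at 47251 or more in every CRT library and at 5911 or less in the gSOX10 and parental libraries, while COL6A1 in CRT34 Combo overlaps the parental range.

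The question of the SOX10 clones was which chains differed between knockout and parental cells. COL15A1 and COL8A1 rose in both clones over parental cells. COL6A1, COL6A2 and COL12A1 rose in gSOX10 #2, and COL6A3 rose in gSOX10 #4. In all, 3 of 9 members were higher in gSOX10 #4, against 11.8% of all genes tested, and 5 of 9 were higher in gSOX10 #2, against 15.9%. No member was called lower in gSOX10 #4, against 8.91% of all genes, or in gSOX10 #2, against 7.78%. The median change of the members was 0.73 in gSOX10 #4 and 1.37 in gSOX10 #2, against 0.00 and 0.03 over all genes. In bulk RNA, fewer cells of a type and less RNA per cell cannot be told apart.

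Of the collagen VI chains, COL6A1 had 6425, 3224 and 3178 in gSOX10 #4 and 15532, 12117 and 12637 in gSOX10 #2, against 4365, 4892 and 6427 in parental cells. The gSOX10 #2 libraries were all above the parental ones (log2 change 1.37 ± 0.32, SE, adjusted p = 0.00184 in limma), whereas those of gSOX10 #4 overlapped them (-0.35 ± 0.32, adjusted p = 0.405). With the GC trend of each library removed, the change in gSOX10 #2 was 0.99 and fell just short of 2-fold. COL6A2 had 3761, 1494 and 1377 in gSOX10 #4 and 7852, 5848 and 5956 in gSOX10 #2, against 1056, 1259.6 and 1677 in parental cells. It was 4.96-fold higher in gSOX10 #2 (2.31 ± 0.38, adjusted p = 9.99e-05) and was not called in gSOX10 #4 (0.60 ± 0.38, adjusted p = 0.233). COL6A3 had 5911, 3887 and 3859 in gSOX10 #4 and 4438, 3291 and 3172 in gSOX10 #2, against 2267, 1527 and 2097 in parental cells. All 6 knockout libraries were above the parental ones, with a change of 1.20 ± 0.27 in gSOX10 #4 (adjusted p = 0.0017) and of 0.89 ± 0.27 in gSOX10 #2 (adjusted p = 0.0116), the second under 2-fold. Without gSOX10 #4 replicate 1 the change in gSOX10 #4 was 1.00, at the 2-fold limit and not called, and without parental replicate 1 that in gSOX10 #2 was 1.00 and called (adjusted p = 0.0155).

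COL8A1, the network-forming chain, had 527, 722 and 689 in gSOX10 #4 and 1139, 1117 and 701 in gSOX10 #2, against 373, 259 and 222 in parental cells. It was 2.30-fold higher in gSOX10 #4 (adjusted p = 0.0173) and 3.46-fold higher in gSOX10 #2 (adjusted p = 0.000876), with no overlap. The call in gSOX10 #4 was lost without parental replicate 2 (adjusted p = 0.0508), parental replicate 3 (0.0717) or gSOX10 #4 replicate 2 (0.0543).

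Among the fibril-associated chains, COL12A1 had 3648, 4466 and 6302 in gSOX10 #4 and 8314, 4289.9 and 4548 in gSOX10 #2, against 3614, 2394 and 1988 in parental cells. All 6 knockout libraries were above the parental ones, narrowly so in gSOX10 #4. The change was called in gSOX10 #2 (1.08 ± 0.34, adjusted p = 0.0143) but not without parental replicate 3 (adjusted p = 0.0701) or gSOX10 #2 replicate 1 (0.0874), and in gSOX10 #4 it was 0.86 ± 0.34 (adjusted p = 0.0513). In gSOX10 #4 it was called without parental replicate 1 (1.10, adjusted p = 0.03) or gSOX10 #4 replicate 1 (1.04, 0.0384). COL16A1 had 1168, 1295 and 1662 in gSOX10 #4 and 749.6, 1065 and 1377 in gSOX10 #2, against 595, 874 and 1061 in parental cells. Its changes were under 2-fold in both clones, 0.73 ± 0.27 (adjusted p = 0.0376) in gSOX10 #4 and 0.33 ± 0.27 (adjusted p = 0.331) in gSOX10 #2. COL14A1 was near the floor of detection, at 26.2, 2.09 and 1.98 in gSOX10 #4 and 16.1, 39.1 and 39.4 in gSOX10 #2, against 7.39, 16.8 and 2.71 in parental cells. It was called in neither clone, though without parental replicate 2 it was in gSOX10 #2 (2.44, adjusted p = 0.0387), and it had intervals of -2.09 to 1.33 in gSOX10 #4 and 0.17 to 3.59 in gSOX10 #2, which hold changes of several fold.

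Of the multiplexins, COL15A1 had 105, 45.3 and 133 in gSOX10 #4 and 139, 71.8 and 110.0 in gSOX10 #2, against 17.5, 13.2 and 16.4 in parental cells. Every knockout library was well above the parental ones. This low-level chain was 5.23-fold higher in gSOX10 #4 (2.39 ± 0.54, adjusted p = 0.00194) and 6.28-fold higher in gSOX10 #2 (2.65 ± 0.54, adjusted p = 0.000662), the largest change of the 9 in each clone. COL18A1, the endostatin precursor, had 519, 144 and 146 in gSOX10 #4 and 739.9, 662 and 499.5 in gSOX10 #2, against 227, 324 and 507 in parental cells, and neither clone was called. Replicate 1 of gSOX10 #4 stood far above replicates 2 and 3 for COL18A1, as it did for COL6A1 and COL6A2. Without it, COL18A1 was called lower in gSOX10 #4 than in parental cells (log2 change -1.20, adjusted p = 0.0027), against -0.59 with it. Without parental replicate 3 it was called higher in gSOX10 #2 (1.20, adjusted p = 0.0244), against 0.90 with it. SLC19A1, which shares exon bases with COL18A1, was also highest in that library of the clone, at 1311 against 493 in the lowest, and its part in the COL18A1 values was not tested.

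The 2 clones differed from each other in 3 of 9 members, all lower in gSOX10 #4 than in gSOX10 #2, against 7.06% of all genes lower. These were the 3 genes on chromosome 21, COL6A1 (-1.72 ± 0.32, adjusted p = 0.000729), COL6A2 (-1.71 ± 0.38, adjusted p = 0.00349) and COL18A1 (-1.49 ± 0.37, adjusted p = 0.00753). COL6A1 and COL6A2 did not overlap between the clones, while COL18A1 did. With the GC trend removed the changes were -1.61, -1.57 and -1.34, all still called. With only these 6 libraries in the fit, COL18A1 was not called (adjusted p = 0.131). COL6A3 was not called (0.31 ± 0.27, adjusted p = 0.457), with a 95% interval of -0.25 to 0.87. COL14A1, at -2.26 (adjusted p = 0.0549), was called without gSOX10 #4 replicate 1 (-3.32, adjusted p = 0.00485).

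The CRT lines had far more mRNA of most of these collagens than parental cells, with and without inhibitors. The 2 largest changes in each CRT group were those of COL6A3, the long chain of collagen VI, and COL8A1. With inhibitors, 9 of 9 members were called higher in CRT35 Combo than in parental cells, against 20.1% of all genes, and 8 of 9 were higher in CRT34 Combo, against 19.1%. No member was lower, where 10.2% of all genes were in CRT35 Combo, 7.98% in CRT35 DMSO, 8.09% in CRT34 Combo and 7.35% in CRT34 DMSO. In DMSO, 8 of 9 were higher in CRT35, against 15.7% of all genes, and 8 of 9 in CRT34, against 15.7%. The median change of the members was 3.94 in CRT35 Combo, 3.26 in CRT35 DMSO, 2.70 in CRT34 Combo and 3.29 in CRT34 DMSO, where the medians of all genes were 0.02 to 0.05. These 4 comparisons, and those of the clones, share the 3 parental libraries.

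COL6A3 had 156638, 198604 and 182826 in CRT35 Combo and 308384, 233616 and 214138 in CRT35 DMSO. It had 47251, 96977 and 113889 in CRT34 Combo and 326201, 223797 and 232821 in CRT34 DMSO, against the parental 2267, 1527 and 2097. All CRT libraries were far above the parental ones, and CRT34 Combo was the lowest CRT group. The fold over parental cells was 92.1 in CRT35 Combo (adjusted p = 9.75e-13), 128 in CRT35 DMSO (3.77e-13), 41.6 in CRT34 Combo (1.89e-11) and 133 in CRT34 DMSO (5.17e-13).

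COL6A1 had 28789, 27344 and 42095 in CRT35 Combo and 54775, 33555 and 27296 in CRT35 DMSO. It had 6869, 4937 and 9013 in CRT34 Combo and 39536, 20217 and 39431 in CRT34 DMSO, against the parental 4365, 4892 and 6427. Only CRT34 Combo overlapped parental cells (0.38 ± 0.32, adjusted p = 0.333), and the fold was 6.23 in CRT35 Combo, 7.15 in CRT35 DMSO and 6.12 in CRT34 DMSO (adjusted p at most 2.75e-06). COL6A2 had 21779, 21954 and 35765 in CRT35 Combo and 49595, 27905 and 23724 in CRT35 DMSO. It had 4168, 3428 and 7859 in CRT34 Combo and 44166, 22022 and 40925 in CRT34 DMSO, against the parental 1056, 1259.6 and 1677. No CRT library overlapped the parental ones, and the fold was 19.7 in CRT35 Combo, 24.5 in CRT35 DMSO, 3.69 in CRT34 Combo and 26.1 in CRT34 DMSO (adjusted p at most 0.000584).

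COL8A1 had 55498, 23760.4 and 22845 in CRT35 Combo and 19540.2, 10028 and 10674 in CRT35 DMSO. It had 14561, 16367 and 41068 in CRT34 Combo and 14799, 16481 and 21399.9 in CRT34 DMSO, against the parental 373, 259 and 222. It was 112-fold higher in CRT35 Combo (adjusted p = 5.70e-11), 45.9-fold in CRT35 DMSO, 76.7-fold in CRT34 Combo and 62.2-fold in CRT34 DMSO (adjusted p at most 1.35e-09). In both Combo groups 1 library was well above the other 2, replicate 1 in CRT35 and replicate 3 in CRT34.

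COL12A1 had 57017, 34473 and 31956 in CRT35 Combo and 25396, 17969 and 18575 in CRT35 DMSO. It had 58015, 48840.5 and 26750.5 in CRT34 Combo and 37905, 19676 and 21707 in CRT34 DMSO, against the parental 3614, 2394 and 1988. The changes, all without overlap, were 3.94 ± 0.34 in CRT35 Combo, 2.98 ± 0.34 in CRT35 DMSO, 4.03 ± 0.34 in CRT34 Combo and 3.29 ± 0.34 in CRT34 DMSO (adjusted p at most 9.61e-07). COL16A1 had 10540.0, 8037 and 11766 in CRT35 Combo and 9637, 7366 and 6857 in CRT35 DMSO. It had 3656, 4263 and 7039.6 in CRT34 Combo and 6498, 4539.6 and 5749 in CRT34 DMSO, against the parental 595, 874 and 1061. COL16A1 and COL18A1 were the 2 members called in each CRT group and in neither clone. The change of COL16A1 was 12.2-fold in CRT35 Combo, 9.58-fold in CRT35 DMSO, 5.83-fold in CRT34 Combo and 6.74-fold in CRT34 DMSO (adjusted p at most 4.12e-07). COL14A1 stayed low, with 116, 20.6 and 62.5 in CRT35 Combo, 18.2, 9.87 and 26.6 in CRT35 DMSO, 98.7, 33.8 and 43.0 in CRT34 Combo and 10.9, 30.7 and 31.9 in CRT34 DMSO. It was called only in the 2 Combo groups, 2.72 ± 0.82 in CRT35 (adjusted p = 0.00916) and 2.70 ± 0.82 in CRT34 (adjusted p = 0.0109). Without parental replicate 3 the adjusted p was 0.0559 in CRT35 Combo and 0.0633 in CRT34 Combo, and without replicate 1 of the Combo group it was 0.0585 in CRT35 and 0.0544 in CRT34.

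COL15A1 had 481, 915 and 258 in CRT35 Combo and 1335, 519 and 448 in CRT35 DMSO. It had 136, 488 and 268 in CRT34 Combo and 342, 764 and 788 in CRT34 DMSO, against the parental 17.5, 13.2 and 16.4. Libraries of 1 CRT group differed widely, and all were above the parental range, with changes of 4.87 ± 0.54 in CRT35 Combo, 5.35 ± 0.54 in CRT35 DMSO, 3.98 ± 0.54 in CRT34 Combo and 5.16 ± 0.54 in CRT34 DMSO (adjusted p at most 9.72e-06). COL18A1 had 1716, 1663 and 2558 in CRT35 Combo and 1807, 1411 and 1462 in CRT35 DMSO. It had 1107, 772 and 886 in CRT34 Combo and 2449, 1887 and 2007 in CRT34 DMSO, against the parental 227, 324 and 507. It was 5.79-fold higher in CRT35 Combo, 4.63-fold in CRT35 DMSO, 2.72-fold in CRT34 Combo and 6.27-fold in CRT34 DMSO (adjusted p at most 0.00382). SLC19A1, by contrast, had 324 to 1074 in the CRT libraries, against 1031 to 1203 in parental ones.

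**Figure D2:**
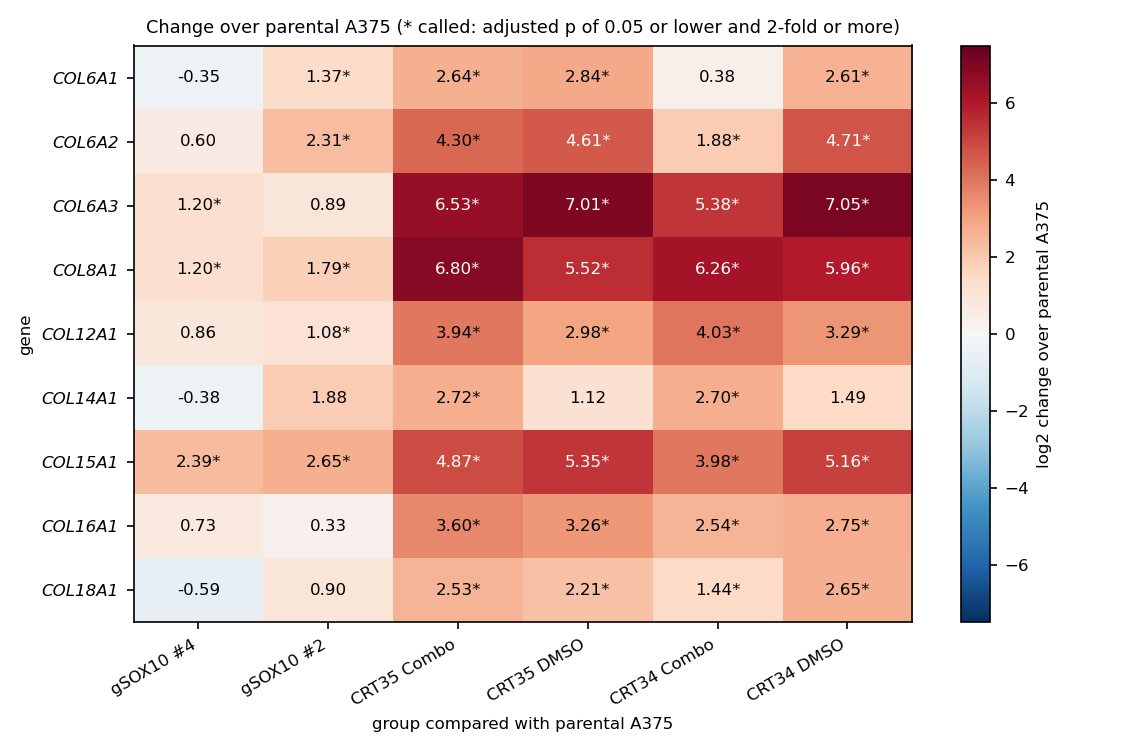
Log2 change of each collagen chain over parental A375 in the 6 other groups (color and printed number). Asterisks mark calls. COL6A3 and COL8A1 have the largest values in the CRT groups, up to 7.05 and 6.80, and COL6A1 in CRT34 Combo is the lowest CRT value at 0.38.

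Markers of fibroblasts were high in the same lines as these collagens. The 8 fibroblast markers summed to 52914 to 76726 in the CRT libraries and 2116 to 3638 in the gSOX10 libraries, against 943 to 1178 in parental cells. THY1, a surface glycoprotein of fibroblasts, had 24903 to 55108 in the CRT libraries and at most 14.8 in gSOX10 and parental libraries, and DCN, the collagen-binding proteoglycan decorin, had 1116 to 14639 in the CRT libraries against 60.0 to 85.4 in parental cells. In contrast, DPT was at most 18.4 and PI16 at most 144 in any library, DPT being listed at 0 in every parental, gSOX10 and CRT35 DMSO library. Endothelial markers summed to 1943 to 7672 in the CRT libraries, 129.9 to 239 in the gSOX10 libraries and 168 to 219.6 in parental cells. In the CRT libraries most of this sum was TEK, while CLDN5 was at most 0.957 in any library. Leukocyte markers summed to 12.1 to 75.9 in CRT, 29.6 to 70.6 in gSOX10 and 327 to 474 in parental libraries. Keratinocyte markers summed to 1113 to 1377 in CRT, 1169 to 2119 in gSOX10 and 1654 to 1677 in parental libraries. Whether cells of another type had a part in the collagen levels was not tested.

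The effect of the inhibitors on these genes was asked within each CRT line. In CRT34, all 3 collagen VI chains were lower in Combo than in DMSO and no other member was called. That is 3 of 9 lower, against 2.26% of all genes, and 0 of 9 higher, against 2.84%. In CRT35, 0 of 9 members were called in either direction in limma, against 1.14% of all genes, and 2 had an unadjusted p under 0.05. The members' median change was 0.32 in CRT35 and -1.18 in CRT34, with 0.01 and 0.00 over all genes.

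In CRT34, COL6A2 had 7.08-fold less mRNA in Combo than in DMSO (-2.82 ± 0.38, adjusted p = 0.00023), COL6A1 4.69-fold less (-2.23 ± 0.32, adjusted p = 0.000314) and COL6A3 3.19-fold less (-1.68 ± 0.27, adjusted p = 0.000848). For each of them every Combo library was below every DMSO library. COL18A1 was also below in every Combo library, but its change of -1.20 ± 0.37 just missed the threshold (adjusted p = 0.0541). COL12A1 went the other way in estimate (0.74 ± 0.34, adjusted p = 0.205), and its interval of 0.04 to 1.45 lay above that of each collagen VI chain. Without CRT34 Combo replicate 3 it was called (1.07, adjusted p = 0.0486), and with CRT35 DMSO replicate 1 also left out it was not (0.0508). COL8A1 (0.30 ± 0.38), COL16A1 (-0.21 ± 0.27), COL15A1 (-1.18 ± 0.54) and COL14A1 (1.21 ± 0.82) were not called, with adjusted p of 0.211 to 0.721. The 3 calls were lost when only the 6 CRT34 libraries were fitted, with the same changes and adjusted p of 0.0619 to 0.112. That fit called 36 of all genes, against 983 with all libraries. With both libraries in doubt left out, the changes were -3.17 for COL6A2, -2.44 for COL6A1 and -1.93 for COL6A3, all called.

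In CRT35 the collagen VI chains had changes that were not called, -0.20 ± 0.32 for COL6A1, -0.31 ± 0.38 for COL6A2 and -0.48 ± 0.27 for COL6A3, with lower interval limits of -0.86, -1.12 and -1.04 in the same order. COL6A3 was lower in every Combo library than in every DMSO library, whereas COL6A1 and COL6A2 overlapped. COL8A1 (1.28 ± 0.38, adjusted p = 0.103) and COL12A1 (0.96 ± 0.34, adjusted p = 0.172) were higher in every Combo library than in every DMSO library and missed the threshold. Without both libraries in doubt COL8A1 was called (1.59, adjusted p = 0.0167). The remaining members had changes of -0.48 for COL15A1, 0.34 for COL16A1, 0.32 for COL18A1 and 1.60 for COL14A1.

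Whether the inhibitors acted differently in the 2 lines was tested as the CRT35 change minus the CRT34 change. Of the 9 members 0 were called in limma, against 0.0104% of all genes (2 genes), and 4 had an unadjusted p under 0.05. The share of all genes with an unadjusted p under 0.05 is not given, here or for the other comparisons. Such counts therefore cannot be set against it. The difference was 2.51 ± 0.54 for COL6A2 (95% interval 1.37 to 3.65) and 2.03 ± 0.45 for COL6A1 (1.09 to 2.97), each with an adjusted p of 0.14. For COL6A3 it was 1.20 ± 0.38 (adjusted p = 0.438) and for COL18A1 1.53 ± 0.53 (adjusted p = 0.501). Without CRT34 Combo replicate 3, COL6A2 (2.86, adjusted p = 0.0117) and COL6A1 (2.24, adjusted p = 0.0211) were called. All genes called in this comparison then numbered 223, against 2 with every library. With both libraries in doubt left out, where 288 of all genes were called, COL6A3 was called as well (1.60, adjusted p = 0.0463).

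Between the lines, the collagen VI chains differed with inhibitors and not detectably in DMSO. In Combo, 4 of 9 members were higher in CRT35 than in CRT34, against 3.17% of all genes higher. These were COL6A2 (2.42 ± 0.38, adjusted p = 0.000313), COL6A1 (2.25 ± 0.32, adjusted p = 9.33e-05), COL6A3 (1.15 ± 0.27, adjusted p = 0.00709) and COL16A1 (1.06 ± 0.27, adjusted p = 0.0113), and for each the libraries of the 2 lines did not overlap. Same-numbered Combo libraries of the 2 lines deviated together, and with the replicate number as a block COL18A1 was called too (1.09, adjusted p = 0.0451, against 0.0584 without the block). Without CRT34 Combo replicate 1, the lowest library for COL6A3 and COL16A1, these 2 were not called (0.76 and 0.87). COL16A1 was also lost without CRT34 Combo replicate 2 (adjusted p = 0.0526), without CRT35 Combo replicate 3 (0.0552) and with the GC trend removed (0.128). With only the 6 Combo libraries fitted, COL6A3 (0.09) and COL16A1 (0.0662) were not called. With both libraries in doubt left out COL8A1 was called (1.01, adjusted p = 0.047). In DMSO, 0 of 9 members were called in limma, against 8.11% of all genes, and 0 had an unadjusted p under 0.05. The 95% intervals there were -0.44 to 0.89 for COL6A1, -0.90 to 0.71 for COL6A2 and -0.61 to 0.52 for COL6A3, and a 2-fold difference in either direction lay outside each of them. COL16A1 was above in every CRT35 library (0.51 ± 0.27) and COL18A1 below (-0.44 ± 0.37), neither past the threshold.

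**Figure D3:**
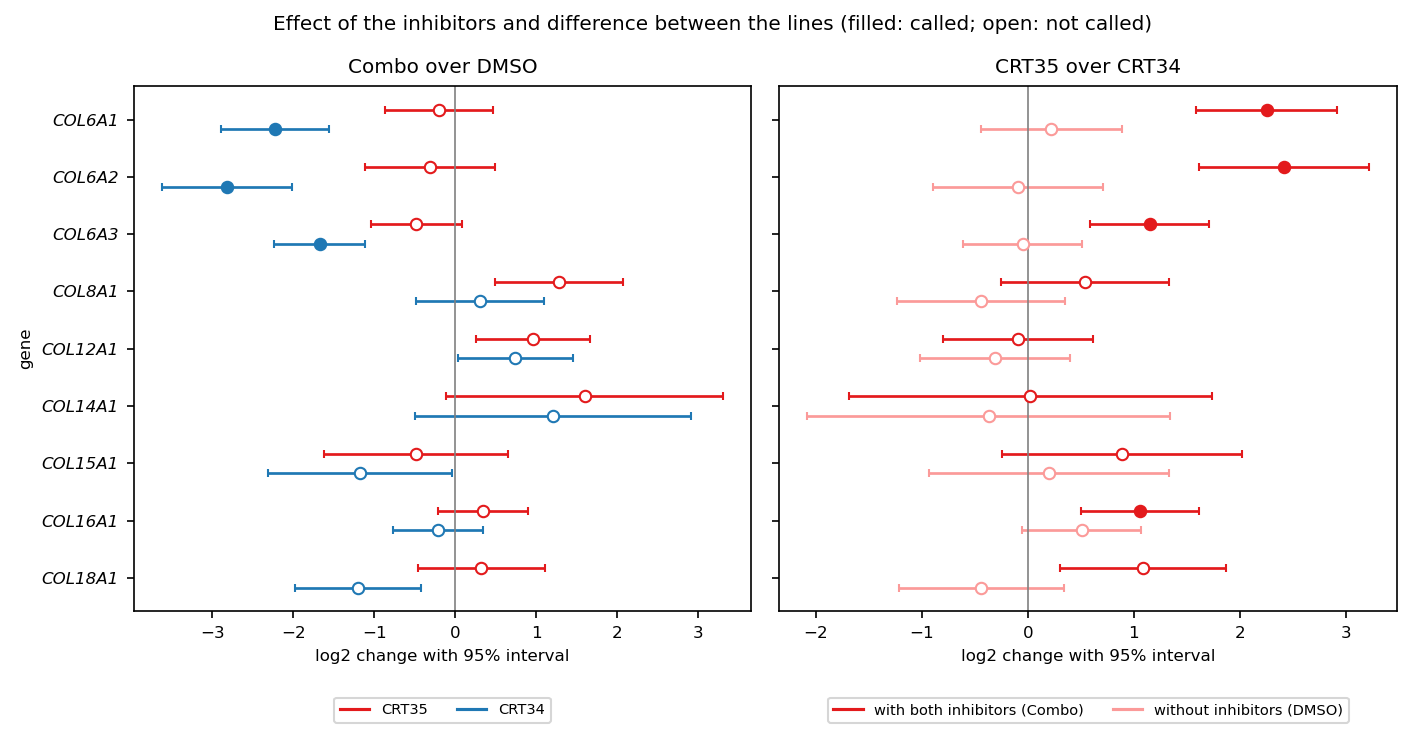
Log2 changes with 95% intervals of the 9 collagen chains, Combo over DMSO in CRT35 and CRT34 (left) and CRT35 over CRT34 with and without inhibitors (right). Filled points are called. The 3 collagen VI chains are called in CRT34 on the left, between -2.82 and -1.68, and in Combo on the right, while their DMSO points lie near 0.

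Levels of different genes were compared as normalized value per kb of the canonical transcript, which was 4203 bases for COL6A1, 3445 for COL6A2 and 10532 for COL6A3. On this scale COL6A3 was the lowest of the 3 collagen VI chains in gSOX10 #4, gSOX10 #2 and parental cells and the highest in the CRT groups. In CRT35 Combo the levels were 17029.6 ± 2013 for COL6A3, 7790.4 ± 1935 for COL6A1 and 7692 ± 2329 for COL6A2 (SD, n = 3). In CRT34 Combo they were 8169 ± 3289, 1651 ± 485 and 1495 ± 689 for the same chains. In parental cells they were 186 ± 36.8, 1244 ± 255 and 386 ± 91.9. Among the other members in CRT35 Combo, COL8A1 had 6171 ± 3371 per kb, COL12A1 3509 ± 1177, COL16A1 1867 ± 351, COL18A1 366 ± 92.9, COL15A1 106 ± 64.0 and COL14A1 8.29 ± 5.97. The levels of COL14A1 and COL15A1 were thus the 2 lowest there, as they were in parental cells at 1.12 ± 0.90 and 3.01 ± 0.42 per kb.

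A factor common to all genes of a library cancels in the ratio of 2 of its chains, but the unsettled factor per gene and library does not. The log2 ratio of COL6A3 to COL6A1 was -0.12, 0.27 and 0.28 in gSOX10 #4 and -1.81, -1.88 and -1.99 in gSOX10 #2, against -0.95, -1.68 and -1.62 in parental cells. It was 2.44, 2.86 and 2.12 in CRT35 Combo and 2.49, 2.80 and 2.97 in CRT35 DMSO, and 2.78, 4.30 and 3.66 in CRT34 Combo and 3.04, 3.47 and 2.56 in CRT34 DMSO. All 12 CRT libraries were thus above all others, gSOX10 #4 came next, and gSOX10 #2 lay below every parental library. The spread within CRT34 Combo, 3.58 ± 0.76 (mean ± SD, n = 3), overlapped the range of CRT34 DMSO. The log2 ratio of COL6A2 to COL6A1 varied less, with means of -1.03 ± 0.23 in gSOX10 #4, -1.04 ± 0.05 in gSOX10 #2, -0.32 ± 0.08 in CRT35 Combo, -0.20 ± 0.06 in CRT35 DMSO, -0.48 ± 0.26 in CRT34 Combo, 0.11 ± 0.05 in CRT34 DMSO and -1.98 ± 0.06 in parental cells. Here parental cells were the lowest without overlap.

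**Figure D4:**
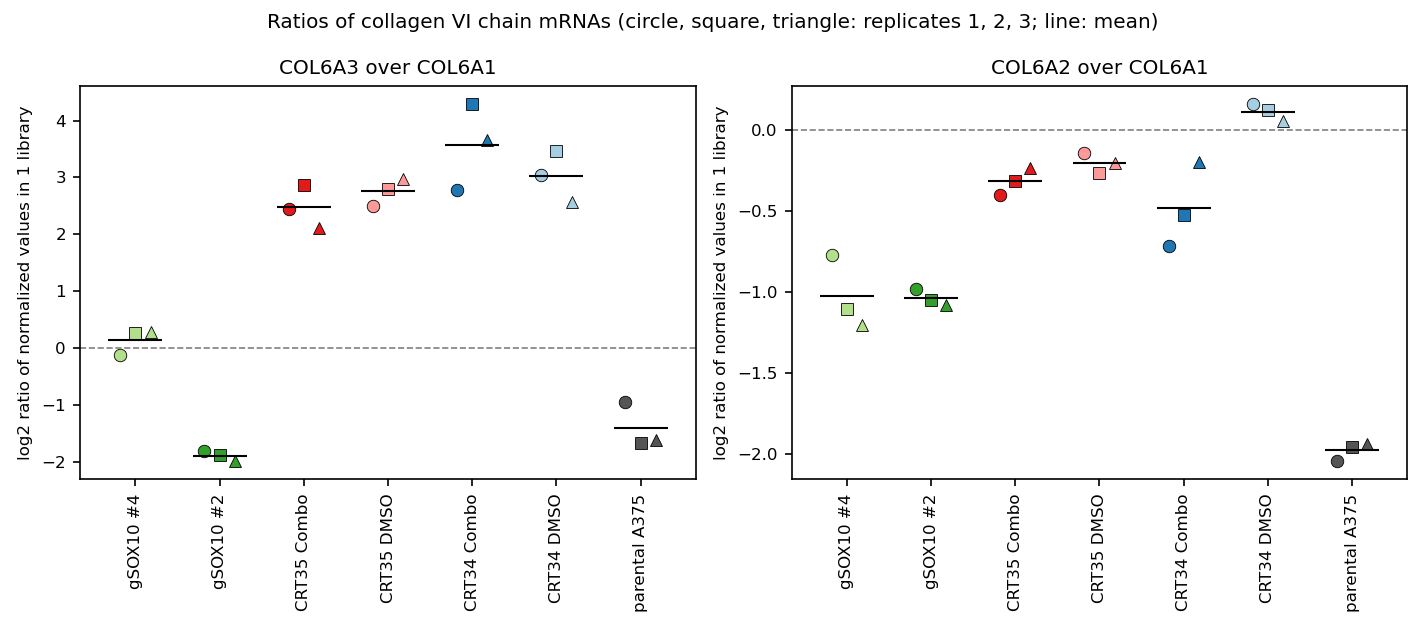
Log2 ratios of the normalized values of COL6A3 to COL6A1 (left) and COL6A2 to COL6A1 (right) in each library, by group, with group means as lines. The CRT libraries lie at or above 2.12 on the left, whereas the 2 clones lie on opposite sides of parental cells, at 0.14 in gSOX10 #4 and -1.89 in gSOX10 #2, against -1.41 in parental cells.

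In the order of the group means of log2(value + 1), parental cells were lowest for 6 of 9 members. There gSOX10 #4 was lowest for COL6A1, COL14A1 and COL18A1, and in those 3 the lowest 2 groups overlapped. By the mean of the plain values COL14A1 was instead lowest in parental cells (8.97, against 10.1 in gSOX10 #4). For COL6A3, neighbors in the order were apart except gSOX10 #2 with gSOX10 #4 and CRT35 DMSO with CRT34 DMSO. For COL8A1 and COL12A1 the 4 CRT groups each overlapped the next in the order, and a gap separated them from the clones. For COL14A1 every group overlapped the next.

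The 9 members were also compared with all protein-coding genes of mean value 100 or more by Pearson correlation of log2 values over the 21 libraries, which share their groups, so these values are descriptions. The genes most like COL6A1 were COL6A2 (r = 0.971), LAMC1 (0.931) and GGT5 (0.913), and those most like COL6A2 were COL6A1 (r = 0.971), LAMC1 (0.961) and GGT5 (0.939). LAMC1 makes a laminin chain of basement membranes. COL6A3 was closest to RAC2 (r = 0.983), TMEM204 (0.980) and PRSS23 (0.978). COL8A1 was closest to C1S (r = 0.986), FIBIN (0.981) and COL3A1 (0.980), the last a fibrillar collagen chain and C1S a complement protease. COL12A1 was closest to CCDC85A (r = 0.974), LUM (0.974) and TNFSF4 (0.972), with LUM encoding the fibril-binding proteoglycan lumican. COL15A1 was closest to PID1 (r = 0.951), SLC16A3 (0.949) and FAP (0.940), COL16A1 to IDO1 (r = 0.971), COL1A1 (0.964) and CARD16 (0.964) and COL18A1 to HLA-B (r = 0.939), EDARADD (0.936) and GJA1 (0.935). COL14A1, near the floor, reached lower values with LHPP (r = 0.865), TCEA2 (0.843) and EXOC7 (0.842). After the group means were removed, COL6A1 and COL6A2 still had r = 0.977 over the 21 libraries, each had 0.736 and 0.754 with COL18A1, and COL6A1 had 0.477 with COL6A3.

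Other genes of collagen biology were read from lists of general knowledge. Beside the counts over parental cells below stand the shares of all genes, 11.8% higher and 8.91% lower in gSOX10 #4, 15.9% and 7.78% in gSOX10 #2, 20.1% and 10.2% in CRT35 Combo, 15.7% and 7.98% in CRT35 DMSO, 19.1% and 8.09% in CRT34 Combo and 15.7% and 7.35% in CRT34 DMSO. Of the 11 fibrillar chains, 7 were higher and 1 lower in CRT35 Combo than in parental cells, 7 and 1 in CRT35 DMSO, 6 and 2 in CRT34 Combo and 6 and 1 in CRT34 DMSO. COL3A1 changed by 14.45 and COL1A2 by 13.31 in CRT35 Combo, over low parental values, and fitted values of this size depend on the pseudocount. In the clones 3 were higher and 2 lower in gSOX10 #4, and 5 and 1 in gSOX10 #2. COL5A1 was higher in both (2.89 and 2.97), while COL5A2 was lower in gSOX10 #4 (-1.26, adjusted p = 1.04e-05). Between Combo and DMSO in CRT34, 2 of the 11 were lower, against 2.26% of all genes, and 1 was higher, against 2.84%. COL1A1 was among the lower ones (-2.14, adjusted p = 0.0164), and its Combo libraries varied widely (8845 ± 7869, SD).

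Of 14 receptors that bind collagens or collagen VI, 4 were higher and 1 lower in gSOX10 #4 and 6 and 1 in gSOX10 #2 than in parental cells. ITGA11, a collagen-binding integrin, was higher by 5.12 in gSOX10 #4 and 6.57 in gSOX10 #2, and by 7.14 in CRT35 Combo and 6.13 in CRT34 Combo. In the CRT groups 8 were higher and 2 lower in CRT35 Combo and 7 and 3 in CRT34 Combo. ANTXR2, which binds collagen VI, and ITGA2, a collagen-binding integrin, were lower in Combo than in DMSO in both lines, ANTXR2 by -1.56 in CRT35 and -1.54 in CRT34 and ITGA2 by -2.33 and -2.32. CSPG4, a collagen VI receptor, was higher in CRT35 than in CRT34 in Combo (1.60) and in DMSO (1.12).

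Of 18 genes of collagen folding and hydroxylation, 1 was higher and 1 lower in gSOX10 #4, 3 and 0 in gSOX10 #2, 8 and 0 in CRT35 Combo and 4 and 1 in CRT34 Combo. In the clones and CRT34 Combo the higher ones were thus near or below the share of all genes. In CRT35 Combo, P3H2, a prolyl 3-hydroxylase, was higher by 3.90, P4HA2, a subunit of prolyl 4-hydroxylase, by 2.51 and SERPINH1, the collagen chaperone, by 2.30. Of 13 tested partners on fibrils and microfibrils, 10 were higher and 2 lower in CRT35 Combo and 7 and 1 in CRT34 Combo, led by FMOD, the proteoglycan fibromodulin (9.27 and 9.99). FMOD had a mean of only 1.36 in parental cells, so the size of its changes depends on the pseudocount. Between Combo and DMSO in CRT34, 5 of 13 were lower, against 2.26% of all genes, among them MFAP2 (-1.99) and BGN, the proteoglycan biglycan (-1.67). In that contrast 1 was higher, MATN2 (3.38), against 2.84% of all genes. The CRT34 Combo libraries varied widely for MATN2 (336 ± 340, SD). Of 9 tested genes of collagen processing, proteases and the protease enhancer PCOLCE, 5 were higher in gSOX10 #4 and 6 in gSOX10 #2, 6 in CRT35 Combo and 5 in CRT34 Combo. MMP14, a membrane-bound collagenase, was higher by 2.24 in gSOX10 #4 and 2.25 in gSOX10 #2, and it was lower in CRT34 Combo than in CRT34 DMSO (-1.64, adjusted p = 0.000252).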

How the data were processed

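Paired-end reads of 101 bp were obtained by the authors from 21 libraries on a NovaSeq. The kit named in the labels differs from that in the study's methods. STAR 2.6.1a, RSEM, Picard, DESeq2 and GRCh38 are listed in the submitters' processing notes. The deposited signal values appear to be RSEM gene counts that the authors scaled by size factors, since the median ratio to the genes' geometric means was 1.01 in each library. Among low values, 18.0% to 63.5% per library were whole multiples (within 0.05) of the value of 1 read, so a further factor per gene and library was apparently applied, counts could not be recovered and no count test was run. Symbols and positions came from GENCODE version 44, which held 58472 of the 58870 identifiers. No 2 libraries were identical.

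A value of 10 or more in 3 or more libraries was required (19290 genes). limma 3.58.1 (R 4.3.3) was fitted to log2(value + 1) with a mean per group and a trended prior (14 residual and 4.70 prior degrees of freedom), and Benjamini-Hochberg adjustment was made within each of 12 comparisons. The procedure was tested on simulated data. Same-numbered libraries deviated together in 1 of 15 pairs of numbered groups, CRT34 Combo with CRT35 Combo (r = 0.218, 0.253 and 0.208), a pairing read from the data, since the labels give no shared day or culture. All 9 members were described. The 3 protein-coding genes of highest r with each were named, as were at most 4 genes per list by lowest adjusted p. The members and lists were chosen with earlier results of these data known. Alternatives were equal totals, quantile normalization, no filter, a pseudocount of 10, only the compared groups, a replicate block, and leaving out each library or 2 libraries in doubt. A correction for GC content (loess, span 0.3) was added after seeing the data. Precision was limited by 3 libraries per group.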

Additional observations from a re-analysis of the deposited data

Results flagged for a closer look

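Some members differed between groups under the same contrast by the limma test of the difference itself. Between the 2 SOX10 clones, gSOX10 #4 minus gSOX10 #2 was -1.72 for COL6A1, -1.71 for COL6A2 and -1.49 for COL18A1 on the log2 scale. Between the CRT lines with inhibitors, CRT35 Combo minus CRT34 Combo was 2.25 for COL6A1, 2.42 for COL6A2, 1.15 for COL6A3 and 1.06 for COL16A1. With 3 libraries per group, single libraries were not tested as outliers.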

How the results depend on the processing

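Of 1521 changes of the 9 members under other settings, 1473 kept their side of the threshold, 26 lost the call, 22 gained one and 0 called changes reversed in sign, while 41 that were not called changed sign. The count of members called moved by over 1.5 times in 6 cases. In CRT34 Combo over CRT34 DMSO it was 0 with only the compared groups fitted and 0 with the replicate block, against 3 with all libraries fitted. Of all genes, 36 were called there with only the compared groups and 0 with the block, against 983. These 2 settings thus called few genes or none, and their zeros are not particular to the members. In CRT35 Combo over CRT34 Combo the count of members ran from 2 to 4 when each library was left out, 2 being without CRT34 Combo replicate 1, and with the replicate block it was 5. For the CRT35 change minus the CRT34 change it ran from 0 to 2 when each library was left out, and it was 3 without both libraries in doubt. In CRT35 Combo over CRT35 DMSO it was 1 without both. Apart from these, the replicate block ended the call of COL8A1 in gSOX10 #4 over parental cells (adjusted p = 0.0539 in limma). Under quantile normalization the share of higher calls among all genes fell below the main share, to 53.9% in gSOX10 #2, against 67.1%, 50.9% in CRT35 Combo, against 66.4%, 54.1% in CRT35 DMSO, against 66.3%, 51.8% in CRT34 Combo, against 70.2%, and 53.4% in CRT34 DMSO, against 68.2%, all over parental cells. It was 40.8% between the clones, against 27.2%. With equal totals the median change of all genes was at most 0.15, in gSOX10 #2 over parental cells, against 0.03 in the main fit. COL14A1, at or near the floor, is limited by depth.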

Other observations

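Other non-fibrillar collagen chains did not move as one group. Of 12 tested, 3 higher and 4 lower were called in gSOX10 #4, 4 higher and 1 lower in gSOX10 #2, 3 higher and 3 lower in CRT35 Combo, 2 higher and 3 lower in CRT35 DMSO, 4 higher and 4 lower in CRT34 Combo and 3 higher and 4 lower in CRT34 DMSO, each over parental cells. COL19A1, another FACIT, was lower in gSOX10 #4 (-4.58), gSOX10 #2 (-5.01), CRT35 Combo (-6.37), CRT35 DMSO (-6.06), CRT34 Combo (-4.00) and CRT34 DMSO (-3.61). COL9A3, a chain of the cartilage FACIT collagen IX, was lower in gSOX10 #4 (-3.56), CRT35 Combo (-3.64), CRT35 DMSO (-3.76), CRT34 Combo (-6.45) and CRT34 DMSO (-8.03), and it was not called in gSOX10 #2 (0.46). COL17A1, a transmembrane collagen of epithelial cells, was higher in gSOX10 #4 (4.22) and gSOX10 #2 (4.60). Its mean in the CRT groups was also above the parental 67.0 ± 16.9 (SD). It was 312 ± 164 in CRT35 Combo, 638 ± 67.5 in CRT35 DMSO, 180 ± 106 in CRT34 Combo and 170 ± 153 in CRT34 DMSO. COL13A1, also transmembrane, was higher in both clones (2.36 and 1.88) and lower in CRT34 Combo (-2.39).

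The chromosome 21 neighborhood was examined after the values had been seen. The other 238 tested genes of that chromosome had a median change of -0.07 in gSOX10 #4 over gSOX10 #2 and 0.00 in CRT34 Combo over CRT34 DMSO. Of 22 tested genes within 500 kb of COL6A1, COL6A2 or COL18A1, 0 were higher and 7 lower in gSOX10 #4 than in parental cells (median -0.48), against 8.91% of all genes lower, and 2 were higher and 9 lower in gSOX10 #2 (median -0.48), against 7.78% lower. Between the clones 1 was higher and 2 were lower, against 7.06% of all genes lower, and 0 were called in limma between Combo and DMSO in CRT34, where 3 had an unadjusted p under 0.05.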
